A study of Mus musculus with 6 samples.

Results

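The 9 genes named for corticothalamic and other deep-layer neurons of the cerebral cortex, *Tle4*, *Hs3st4*, *Tbr1*, *Sox5*, *Nxph3*, *Rprm*, *Fezf2*, *Rmst* and *Garnl3*, were followed through single cells of the hippocampal CA1 region. They were chosen with earlier results of these data known, and all 9 were found by name among the 20234 genes of the count table. The cells came from 6 male C57Bl6 mice at postnatal day 28, killed 6 h after 1 injection. Placebo mice 1, 3 and 5 received placebo, and EPO mice 2, 4 and 6 received 5000 IU/kg recombinant human erythropoietin (rhEPO), a hormone best known for driving red blood cell formation. Libraries were made by Drop-seq, in which a cell shares a droplet with a barcoded bead so that each captured transcript carries a cell barcode and a unique molecular identifier (UMI). The study compared EPO with placebo for early changes in the cell types of CA1, and it lists *Tle4*, *Hs3st4*, *Tbr1*, *Sox5* and *Rmst* among the markers of a cell cluster that it drew from these same cells.

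Corticothalamic neurons sit in layer 6 of the neocortex and send their axons to the thalamus. *Tbr1*, *Sox5* and *Fezf2* are transcription factors that divide the deep-layer projection neurons among themselves during development: *Tbr1* and *Sox5* favor the corticothalamic and subplate fates, and *Fezf2* favors the subcerebral fate of layer 5. *Tle4*, a Groucho-family co-repressor, is a common label of mature corticothalamic neurons. CA1 pyramidal neurons are also glutamatergic, but they are usually recognized by other genes, such as *Wfs1*, *Fibcd1*, *Spink8* and *Zbtb20*.

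The 9 genes differ widely in size and place. In GENCODE vM21 on GRCm38, *Tle4* (ENSMUSG00000024642.17) lies on chr19:14448150-14598051, *Tbr1* (ENSMUSG00000035033.15) on chr2:61802930-61814114 and *Sox5* (ENSMUSG00000041540.16) on chr6:143828425-144781977. *Fezf2* (ENSMUSG00000021743.6) spans chr14:12342094-12348189, and *Hs3st4* (ENSMUSG00000078591.1), which encodes a heparan sulfate 3-O-sulfotransferase, spans chr7:123982869-124398989. *Nxph3* (ENSMUSG00000046719.7), which encodes the secreted neurexin ligand neurexophilin 3, lies on chr11:95509845-95514570, and *Rprm* (ENSMUSG00000075334.2), which encodes the cell cycle inhibitor reprimo, on chr2:54084093-54085552. *Garnl3* (ENSMUSG00000038860.15), named for a GTPase-activating Rap/RanGAP domain, lies on chr2:32986224-33131654. *Rmst* (ENSMUSG00000112117.1), on chr10:92071037-92165170, is the only non-coding member, a long intergenic RNA known to bind SOX2. *Tbr1* and *Hs3st4* are on the plus strand and the other 7 on the minus strand. Where other annotated genes lie inside a member, their reads cannot always be told apart: 10 on the same strand within *Rmst* (among them *Mir135a-2* and *Mir1251*), 2 each within *Sox5* and *Hs3st4*, 1 within *Garnl3*, and, on the opposite strand, 5 within *Sox5* and 1 each within *Hs3st4* and *Rmst*. Whether the counting used strand is not given in the sources used here.

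Because *Tbr1* and *Sox5* encode DNA-binding factors, the 250 bases before each RefSeq start (GRCm38.p6) were searched on both strands for a T-box site (TCACACC, or GGTGTGA on the other strand) and a SOX core (ACAATG, or CATTGT). There were 9 such windows, for 7 members, and no entry for *Nxph3* and *Rmst*. No member window held the T-box letters, which occur in 3.33% of 32851 windows of this length over all genes, and 1 held the SOX core, which occurs in 10.7% of them. That window belongs to *Sox5* itself and is shown with that of *Hs3st4*, because these windows hold the lowest and the highest share of G and C among the 9, 39.6% and 82.0%, around a median of 52.4% over all genes. The *Sox5* window (chr6:143947107-143947356, minus strand) precedes a start inside the annotated gene, and capitals mark the SOX core. The *Hs3st4* window (chr7:123982578-123982827, plus strand) holds neither motif.

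Sox5: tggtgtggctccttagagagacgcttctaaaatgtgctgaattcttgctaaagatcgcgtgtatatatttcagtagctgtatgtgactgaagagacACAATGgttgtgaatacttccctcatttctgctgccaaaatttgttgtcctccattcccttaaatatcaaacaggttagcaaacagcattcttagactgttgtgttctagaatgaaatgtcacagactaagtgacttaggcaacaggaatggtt

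Hs3st4: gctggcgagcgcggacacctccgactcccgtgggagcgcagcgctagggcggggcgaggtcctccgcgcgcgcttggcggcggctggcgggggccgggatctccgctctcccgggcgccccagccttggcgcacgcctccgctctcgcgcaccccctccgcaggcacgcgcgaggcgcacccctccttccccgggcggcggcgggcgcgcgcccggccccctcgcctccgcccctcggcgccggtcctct

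Of 6000 barcodes, 1000 per mouse, 973 passed the limits of more than 1000 and up to 8000 detected genes with no more than 40% mitochondrial UMIs. Each mouse kept 43 (placebo mouse 3) to 271 cells (EPO mouse 4) and 204479 to 1948490 UMIs, at median depths of 4088 to 4924 UMIs and median mitochondrial shares of 3.58% to 18.3%, in all 390 placebo and 583 EPO cells. Placebo mouse 1 and EPO mouse 4 shared 59 barcodes, of which 26 were retained in both mice, and no other mice shared a retained barcode. In these 26, the mouse 4 barcode held 17.05% to 31.7% of the UMIs of its namesake in mouse 1, and the correlation of their profiles (median 0.763) exceeded that with other barcodes (median 0.406). They make up 9.59% of the cells of mouse 4, hold 55 of its UMIs of the 9 genes, and were left out as an alternative. The 9 genes together gave 2333 UMIs in the retained cells, or 338 CPM (UMIs scaled to a total of 1000000).

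Cells were clustered without the 9 genes, which gave 4 glutamatergic-like clusters with 617 cells, numbered 0, 1, 3 and 4, besides clusters that resembled oligodendrocytes, astrocytes, GABAergic neurons, oligodendrocyte precursors (OPC), endothelial cells, microglia and mural cells. Cluster 0 (236 cells) was led by *Cpne7*, *Epha6* and *Fibcd1*, cluster 1 (174 cells) by *Spink8*, *Hpca* and *Calb1*, and cluster 4 (85 cells) by *Slc17a6* and *Nts*, genes used to mark the subiculum. Cluster 3 (122 cells) was led by *Rxfp1*, *Rmst*, *Tshz3* and *Garnl3*, so that 2 of the members head its list. Neither entered the clustering, but both were chosen with earlier results of these data known. Depth ran from a median of 3717.5 UMIs in cluster 0 to 10576 in cluster 1, and the median mitochondrial share was 20.9% in cluster 3 against 4.06% in cluster 1. Shares of cells are therefore given as the expectation after thinning each cell to 1500 UMIs, a depth that all 617 cells reached.

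All 9 genes were seen in glutamatergic-like cells, but only some of them stood apart from other cells. *Hs3st4* was expected in 13.3% of glutamatergic-like cells and 1.45% of other cells, *Tbr1* in 3.59% and 0.222%, and *Nxph3* in 2.35% and 0.298%. *Fezf2* (7.79% and 2.23%), *Garnl3* (6.92% and 2.84%), *Rprm* (3.77% and 1.79%) and *Rmst* (3.70% and 1.79%) differed less as a ratio, although *Fezf2* and *Garnl3* differed by more percentage points (5.56 and 4.08) than *Tbr1* (3.37) and *Nxph3* (2.06). *Tle4* (6.78% and 6.90%) and *Sox5* (5.37% and 4.94%) were about as frequent outside the glutamatergic-like cells as in them. Unthinned, UMIs of *Hs3st4* were seen in 212 of the 617 cells (34.4%), of *Fezf2* in 154, of *Tle4* in 137, of *Garnl3* in 122, of *Sox5* in 117, of *Tbr1* in 81, of *Rprm* in 71, of *Rmst* in 52 and of *Nxph3* in 36.

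*Tle4* and *Sox5* were frequent in glia-like cells. *Tle4* was expected in 15.9% of OPC-like and 15.2% of astrocyte-like cells, close to its 16.2% in cluster 3, and in only 2.06% of cluster 0. *Sox5*, a SoxD factor also known in glial precursors, was expected in 12.6% of astrocyte-like, 12.3% of OPC-like and 11.4% of cluster 3 cells. *Rmst* and *Fezf2* were seen in astrocyte-like cells too (6.36% and 8.93%). Both had 0 UMIs in the 37 OPC-like cells, which at their full depth allows a share of up to 8.11% (exact 95% limit 9.49%). At full depth, *Fezf2* was in 19.7% of astrocyte-like cells (exact 95% interval 11.5% to 30.5%) and *Rmst* in 11.8% (5.56% to 21.3%). The astrocyte-like interval lies above the OPC-like limit of 9.49% for *Fezf2* and reaches below it for *Rmst*. These intervals cover counting error only, and the difference between the classes was not tested for either gene. *Garnl3* was expected in 15.3% of GABAergic-like cells. *Hs3st4* was expected in 11.1% of microglia-like cells, but this rests on 3 of 18 cells with 1 UMI each. Free RNA can set a floor to such shares and was not estimated. In oligodendrocyte-like cells, with a median of 5256.5 UMIs, the shares at the same depth were 2.08% for *Tle4* and 0% to 0.875% for the other 8 genes, and in endothelial-like cells, with a median of 2810 UMIs, they were 1.71% for *Tle4*, 1.14% for *Rmst* and 0% to 0.158% for the rest. Other small classes reached more. *Tle4* was at 8.43% in microglia-like cells, on 2 of 18 cells, with 0 UMIs of *Sox5*. *Sox5* was at 4.36% and *Tbr1* at 4.55% in mural-like cells, on 1 of 10 cells each, with 0 UMIs of *Tle4*. The astrocyte-like and OPC-like shares of *Tle4* and *Sox5* lie above all of these.

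Within the glutamatergic-like cells the 9 genes leaned to cluster 3. Its share was the highest of the 4 clusters for *Tle4*, *Hs3st4*, *Tbr1*, *Sox5*, *Nxph3*, *Rmst* and *Garnl3*, while cluster 4 was highest for *Rprm* (9.32% against 6.23% in cluster 3) and *Fezf2* (11.1% against 9.54%). *Rmst* and *Nxph3* had the sharpest borders. *Rmst* was at 94.6 CPM in cluster 3 and 32.9 in cluster 4, with 2 UMIs in cluster 1 and 0 in cluster 0, where a count of 0 allows 3 UMIs. *Nxph3* was at 66.0 and 59.7 CPM in clusters 3 and 4, with 2 UMIs in cluster 0 and 0 in cluster 1. Its level in cluster 4 rests mostly on EPO mouse 6, which gave 53 of the 69 UMIs there, and 1 cell held 20 of the 69. *Garnl3* reached 184 CPM in cluster 3 and stayed between 9.69 and 44.2 in the other 3 clusters.

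*Hs3st4* and *Fezf2* spread more evenly. *Hs3st4* was expected in 19.97% of cluster 3 cells but also in 10.8%, 13.6% and 10.1% of clusters 0, 1 and 4. *Fezf2* ran from 5.63% in cluster 0 over 7.92% in cluster 1 to 11.1% in cluster 4. *Tbr1* fell between these patterns, at 9.13% in cluster 3, 4.66% in cluster 4 and 1.61% and 1.87% in clusters 0 and 1. Over mice the cluster 3 levels varied widely. *Garnl3* was at 169 ± 57.6 CPM (SD, n = 6 mice) in cluster 3 and *Hs3st4* at 163 ± 60.8, whereas *Rmst* was at 58.6 ± 60.6 and *Nxph3* at 82.7 ± 114, with at least 1 mouse at 0 for each of the latter. As clusters were drawn from these same cells, these contrasts are descriptions and were not tested.

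**Figure D1:**
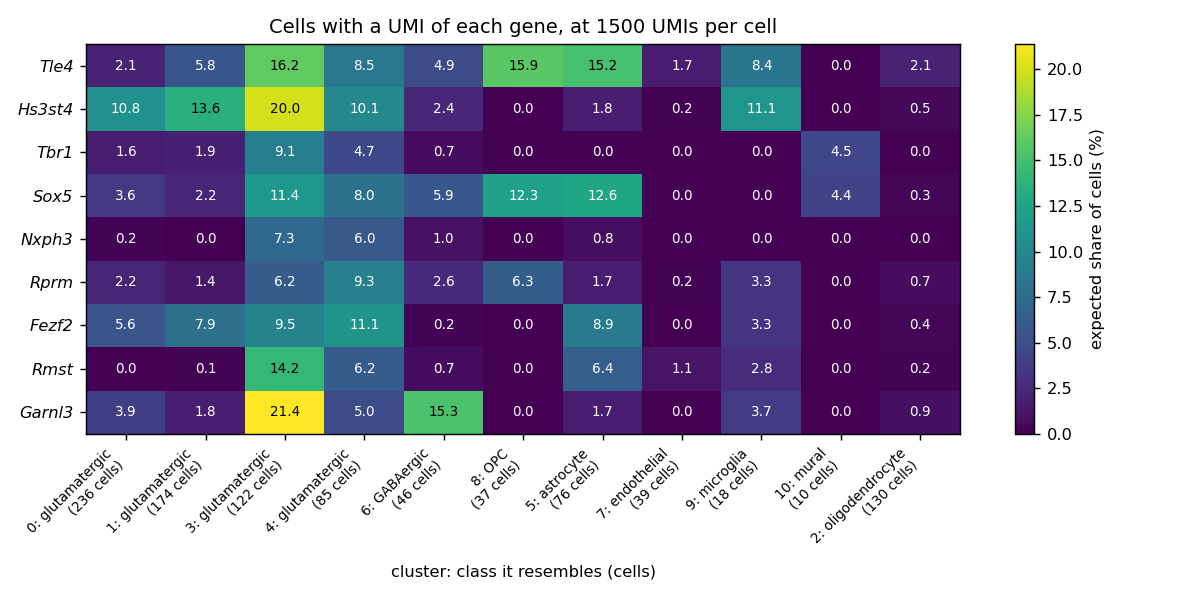
Expected share of cells (%) with a UMI of each of the 9 genes after thinning every cell to 1500 UMIs, by cluster, with the class that each cluster resembles and its number of cells below. Cluster 3 is highest among the glutamatergic-like clusters for 7 genes, and *Tle4* and *Sox5* are also frequent in the astrocyte-like and OPC-like columns.

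A shared set of cells would show as genes that turn up together. For each of the 36 pairs, the number of glutamatergic-like cells with both genes at 1500 UMIs was set against the number that independence within each mouse gives. The median ratio over pairs was 2.02, and 33 of 36 pairs lay above 1. Pairs of the 8 CA1 and hippocampal genes (*Wfs1*, *Fibcd1*, *Mpped1*, *Spink8*, *Man1a*, *Pou3f1*, *Gpr161*, *Zbtb20*), treated the same way, had a median of 1.18. Genes spread over a larger share of the cells can reach only lower ratios, so these medians do not rank the sets. Ratios summed over pairs were above 1 in all 6 mice, at 1.95, 1.13 and 1.29 in placebo mice 1, 3 and 5 and at 2.57, 1.88 and 2.28 in EPO mice 2, 4 and 6. Pairs share genes and cells, so they are not independent and no test was made over them. With independence taken within both mouse and cluster, the median fell to 1.38 and 31 pairs stayed above 1.

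*Nxph3* had the highest ratios. *Tle4* and *Nxph3* were expected together in 5.77 cells at this depth against 1.07 under independence, a ratio of 5.40, and in the unthinned data 25 of the 36 cells with *Nxph3* also carried *Tle4*. *Sox5* and *Nxph3* (4.38) and *Hs3st4* and *Nxph3* (3.85) came next. *Tle4* and *Hs3st4*, the pair with the most shared cells (69 unthinned, 12.4 at depth against 5.67), stood at 2.19 and were above 1 in 6 of 6 mice, as were *Hs3st4* and *Tbr1* (1.94). *Fezf2* had the lowest ratios. Its ratio was 0.817 with *Rmst*, 0.9502 with *Tbr1* and 0.980 with *Tle4*, the 3 pairs below 1, and its median over the other 8 members was 1.25 against 1.86 to 3.52 for the rest.

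The 9 genes and the CA1 genes tended to be found in different cells. The median ratio over the 72 pairs of a member with a CA1 gene was 0.588, with 7 pairs above 1. Within clusters it was 0.825, with 18 pairs above 1. The ratio summed over these pairs was below 1 in all 6 mice, from 0.490 in EPO mouse 2 to 0.907 in placebo mouse 5. *Nxph3* (median 0.133) and *Rmst* (0.216) were found least with CA1 genes. *Hs3st4* (0.936) and *Fezf2* (0.879) came close to independence, and *Fezf2* with *Pou3f1* (1.14) was among the highest pairs.

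**Figure D2:**
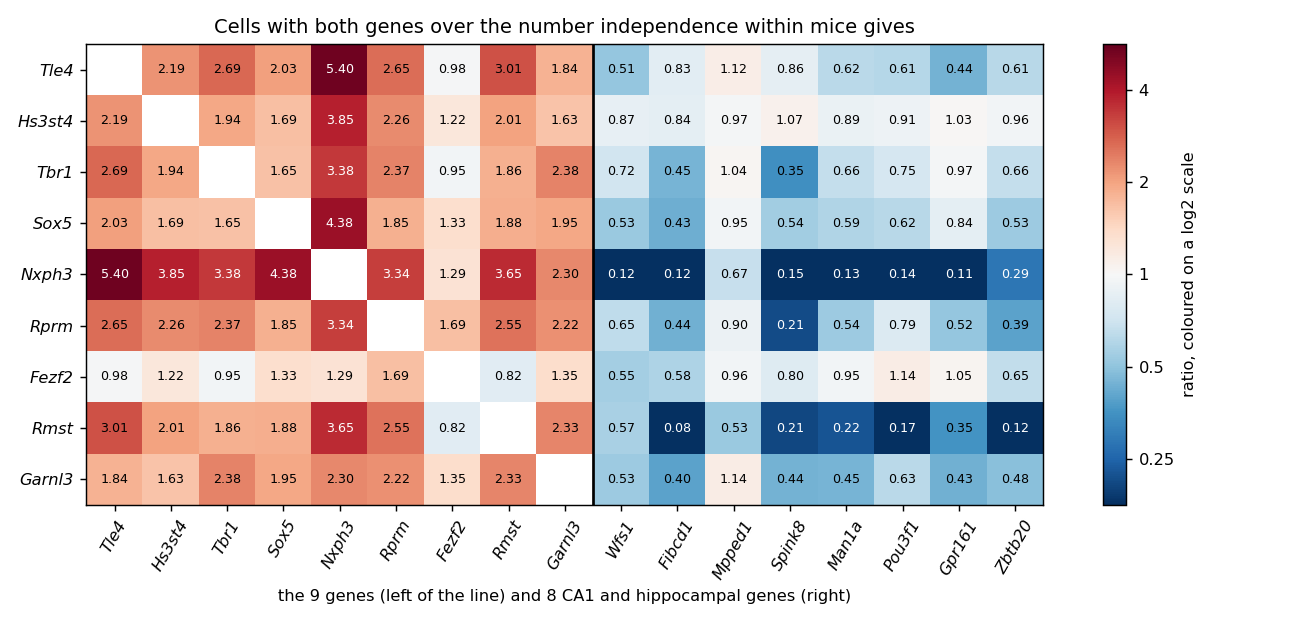
Ratio of cells with both genes to the number that independence within mice gives, at 1500 UMIs per cell, for the 9 genes against each other (left of the line) and against 8 CA1 and hippocampal genes (right), colored on a log2 scale. The left block lies mostly above 1, with *Fezf2* closest to 1, and the right block mostly below 1.

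After thinning to 1500 UMIs, 407 of the 617 glutamatergic-like cells carried none of the 9 genes, 147 carried 1, 36 carried 2 and 27 carried 3 or more, up to 6. The 63 cells with 2 or more (10.2%, exact 95% interval 7.94% to 12.9%, which covers counting error only) are a range of a count and not a cell type, since 147 and 36 cells lie at 1 and 2, on either side of the limit. Cluster 3 held 40 of them, or 32.8% of its cells, cluster 4 held 11 (12.9%), cluster 0 held 8 (3.39%) and cluster 1 held 4 (2.30%). Outside the glutamatergic-like cells, 4 of 76 astrocyte-like, 3 of 46 GABAergic-like and 0 of 39 endothelial-like cells had 2 or more. Over 100 random thinnings the clusters kept this order only in part, at 31.98% in cluster 3, 15.2% in cluster 4, 4.14% in cluster 1 and 4.02% in cluster 0. *Hs3st4* was in 38 of the 63 cells, *Tle4* in 27, *Garnl3* in 21, *Sox5* in 17, *Nxph3* and *Rprm* in 14 each, *Fezf2* and *Rmst* in 13 each and *Tbr1* in 10. Of the 13 with *Fezf2*, 8 were in clusters 0 and 1, but of the 13 with *Rmst*, 12 were in cluster 3.

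The name of the gene set was checked against other deep-layer genes in these 63 cells. Some labels of cortical layer 6 were there. *Foxp2*, a forkhead factor of corticothalamic neurons, had 13 UMIs in 9 of the 63 cells and 4 UMIs in 4 of the other 554, although 7 of the 13 came from 1 mouse. *Pcp4*, a calmodulin-binding protein of deep layers, had 67 UMIs in 20 cells against 96 in 29, and was seen in all 6 mice. *Syt6* (0 UMIs, 1 in the other cells), *Ntsr1* (1 and 28) and *Nxph4* (0 in both), genes often used to mark layer 6 types, were at or near 0, at a depth where a count of 0 allows 8.14 CPM. *Crym* (355 CPM against 610) and *Bcl11b* (439 against 500), which CA1 neurons also express, were not higher. Summed over 19 listed deep-layer genes other than the 9, these cells held 1.69 ± 0.527 UMIs per 1000 (SD, n = 6 mice) and the others 1.65 ± 0.257, higher in 3 of 6 mice. This sum draws most on abundant genes such as *Crym* and *Bcl11b*. Among rarer ones, *Ctgf* (8 UMIs against 5), *Sulf1* (7 against 2, 6 of the 7 from 1 mouse) and *Cplx3* (3 against 1) had more UMIs in the 63 cells. *Zfpm2*, *Nr4a2*, *Tox* and *Moxd1* were higher in CPM, and *Etv1*, *Ldb2*, *Crim1*, *Foxp1* and *Bcl6* lower.

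Genes of near-projecting neurons, a deep-layer type without distant targets, were more frequent in the same cells. *Pamr1* had 59 UMIs in 18 of the 63 cells and 14 UMIs in 14 of the other 554, *Cwh43* had 17 in 13 and 24 in 19, and the 6 listed genes summed to 1.17 ± 0.321 against 0.612 ± 0.0925 UMIs per 1000, higher in 6 of 6 mice. Of that list, *Rxfp1*, *Tshz3*, *Tshz2*, *Pamr1* and *Cwh43* also lead cluster 3, which holds 40 of the 63 cells. The list is thus no independent evidence on what these cells are. *Rorb*, a nuclear receptor of layer 4, had 18 UMIs in 11 cells against 12 in 9, with 11 of the 18 from 1 mouse. As *Syt6* and *Nxph4* were in 0 of the 63 cells and *Ntsr1* in 1, these cells are called below cells with 2 or more of the 9 genes and are given no type name. Their median mitochondrial share was 18.4% against 8.66% in the other glutamatergic-like cells, with medians of 4318 and 5307.5 UMIs, and the part of this in the differences below was not tested.

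CA1 genes were lower in cells with 2 or more of the 9 genes. The 8 CA1 genes summed to 0.222, 1.33 and 1.80 UMIs per 1000 in such cells from placebo mice 1, 3 and 5, against 1.84, 1.64 and 1.86 in the other glutamatergic-like cells. In EPO mice 2, 4 and 6 they summed to 0.389, 0.508 and 1.00 against 1.93, 1.80 and 2.56. The difference was least in placebo mouse 5 and next least in placebo mouse 3. On average it was -1.06 ± 0.693 UMIs per 1000 (SD, n = 6 mice), below 0 in 6 of 6 mice (two-sided exact sign-flip permutation test, p = 0.031, the smallest that 6 mice allow). Without *Zbtb20* the difference was -0.515, again below 0 in 6 of 6 mice (p = 0.031 by the same exact test), and without the shared barcodes it was -1.07 (p = 0.031). In settings that left 5 mice with enough cells the test could not pass, and with 6 mice it missed the threshold for cells taken by marker UMIs (-0.920) and for 1 or more of the genes (-0.736), each below 0 in 5 of 6 mice. The CA1 list and the 9 genes were chosen with earlier results of these data known, so these tests are no independent evidence. Among cells with 0, 1, 2 and 3 or more of the 9 genes the level of the CA1 genes was 2.08 ± 0.317, 1.499 ± 0.716, 0.979 ± 0.727 and 0.694 ± 0.914 (SD, n = 6 mice). With 3 or more, the SD exceeds the mean, and placebo mouse 3 had only 1 such cell. Inside cluster 3 alone the contrast was small, -0.114 over 3 mice (p = 0.75 by the same exact test, which cannot go below 0.25), with EPO mouse 4 at 0.561 against 0.267. Cells with 0 or 1 of the genes were at 2.65, 2.32, 0.520 and 0.703 UMIs of CA1 genes per 1000 in clusters 0, 1, 3 and 4, so that cluster 3, which holds 40 of the 63 cells, was low in CA1 genes as a whole. The sets of genes were not exclusive: 31 of the 63 cells (49.2%, exact 95% interval 36.4% to 62.1%) had a UMI of a CA1 gene, as did 79.8% of the others.

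**Figure D3:**
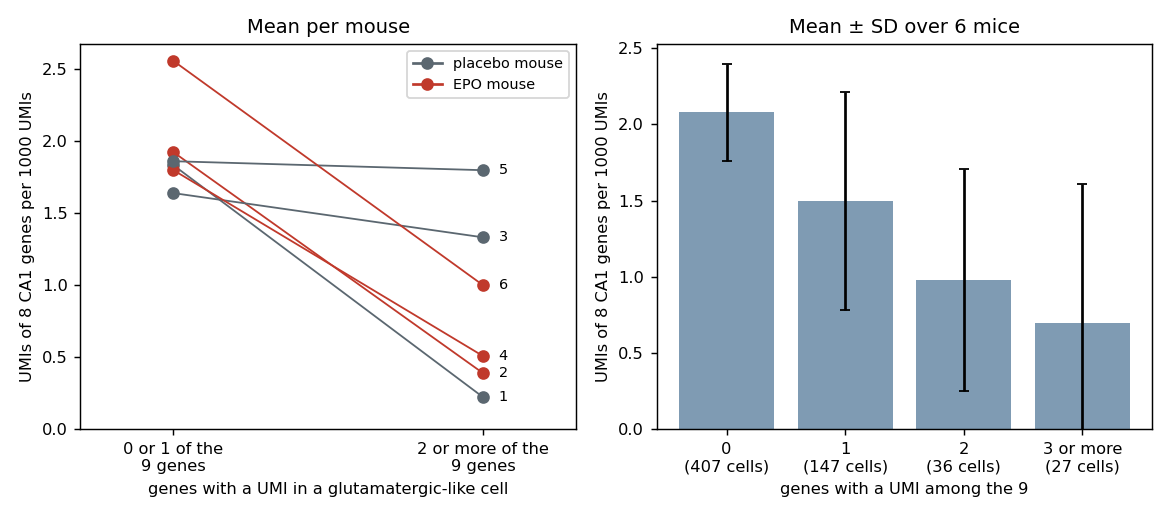
UMIs of 8 CA1 genes per 1000 UMIs in glutamatergic-like cells thinned to 1500 UMIs. Left, mean per mouse in cells with 0 or 1 and with 2 or more of the 9 genes, where every line falls. Right, mean ± SD over 6 mice by the number of the 9 genes seen, from 2.08 at 0 to 0.694 at 3 or more.

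Which other genes went with the 9 was asked by summing UMIs per mouse over the cells with 2 or more and, apart from them, over the remaining glutamatergic-like cells, and comparing both within mice with edgeR's quasi-likelihood test. Genes of the 9 chose the cells and are given as description only: *Hs3st4*, the only one with enough UMIs, was at 497 ± 246 CPM against 62.4 ± 23.6 (SD, n = 6 mice). Of 1794 other genes, 7.41% passed an adjusted p of 0.05, 67 higher and 66 lower. The even split depends on the scaling: by library totals 26 were higher and 97 lower, with the median of all genes at -0.26. limma called 0 of them, with 298 at an unadjusted p under 0.05 against 409 (22.8%) in edgeR, and DESeq2 called 227.

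Among the genes that were higher in every mouse, *Etl4* had the smallest p. The share of all genes with one direction in 6 of 6 mice was 2.68% for higher and 10.2% for lower. *Etl4* was at 118, 185 and 120 CPM in these cells from placebo mice 1, 3 and 5, then at 197, 122 and 156 in EPO mice 2, 4 and 6, while the other cells stayed between 17.9 and 38.8 in all mice. The groups did not overlap, and the log2 fold change was 2.88 (SE 0.31, edgeR's adjusted p = 7.22e-07). *Elavl4*, which encodes the neuronal RNA-binding protein HuD, was at 427 ± 144 against 193 ± 32.9 CPM (1.42, edgeR's adjusted p = 0.000453), and *Stmn1*, which encodes the microtubule regulator stathmin, at 331 ± 236 against 108 ± 62.1 (1.75). *Tshz2*, a teashirt-family zinc finger factor, rose by 1.605, *Tnrc6a*, a partner of Argonaute in gene silencing, by 1.72, *Rnpc3* of the minor spliceosome by 1.38 and *Smc5* of the SMC5/6 complex by 1.36. *Dzank1* (1.56), *Strbp* (1.23) and *1700020I14Rik* (1.17) complete the 10 genes with the smallest p that were higher in every mouse, all with an adjusted p of at most 0.00274 in edgeR.

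Among the genes that were lower in every mouse was *Nrgn*. The gene, which encodes the calmodulin-binding postsynaptic protein neurogranin, was at 692, 1050 and 601 CPM in these cells of placebo mice 1, 3 and 5 against 1372, 1165 and 1255 in the others, and at 138, 384 and 480 against 912, 1413 and 1896 in EPO mice 2, 4 and 6. It was lower in every mouse, least in placebo mouse 3 (log2 fold change -1.24, SE 0.25, edgeR's adjusted p = 0.00242). *Bdnf*, the neurotrophin, was at 24.7 ± 15.4 against 183 ± 47.9 CPM (-2.43), and *Cap2*, a regulator of actin filaments, at 33.0 ± 21.0 against 214 ± 48.4 (-2.56). *Chn1*, a Rac GTPase-activating protein (-1.13), *Wasf1*, an actin regulator of the WAVE complex (-1.54), the transcription factors *Zeb2* (-1.82) and *Zbtb18* (-1.64), the calcium-binding copine *Cpne6* (-1.31), the secreted protein *Fam19a1* (-2.502) and the splicing factor *Cdc40* (-1.76) were lower in every mouse too.

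By list, 0 CA1 genes passed in the higher and 5 of 6 tested in the lower direction, against 3.73% and 3.68% of all genes: *Pou3f1* (-2.08), *Spink8* (-2.04), *Man1a* (-1.89), *Fibcd1* (-1.63) and *Zbtb20* (-1.28). *Pou3f1* and *Spink8* were lower in 6 of 6 mice, whereas *Man1a*, *Fibcd1* and *Zbtb20* were each lower in 5 and higher in 1. The list's median was -1.76 and that of all genes -0.0046. *Mpped1* (-0.08) did not pass. The CA1 list was chosen with earlier results of these data known. Cluster 3, low in CA1 genes as a whole, holds 40 of the 63 cells. Of 7 tested deep-layer genes other than the 9, 0 passed, with values from -0.74 (*Crim1*) to 0.54 (*Nr4a2*). *Tshz2* was the one of 2 tested near-projecting genes, and *Stmn1* the one of 2 tested newborn-neuron genes, to pass, while *Tubb3* of the latter stood at -0.54. *Elavl4*, *Fut9* (1.80) and *Celf4* (0.87), the 3 tested of the study's own immature markers, all passed, a list drawn on these cells and so no independent evidence. Of these, *Fut9* and *Celf4* were each higher in 5 mice and lower in 1. *Dcx*, the usual label of newborn neurons, was below the level for testing, with 17 UMIs in 14 of the 63 cells and 72 in 57 of the others.

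The comparison was repeated inside cluster 3. There, over the 3 mice with enough cells, 36 of 1071 genes passed. Of the genes named above as passing, 15 could be tested there. *Etl4*, *Stmn1*, *Bdnf*, *Cap2*, *Zeb2*, *Fam19a1*, *Zbtb18*, *Cdc40*, *Pou3f1*, *Spink8*, *Man1a* and *Fibcd1* were not among them. Whether these differ inside cluster 3 was thus not tested. Only 4 still passed in the same direction, *Elavl4* (0.99), *Fut9* (0.75), *Nrgn* (-1.49) and *Chn1* (-1.18). Another 8 kept their direction without passing, from *Cpne6* (-0.13), *Celf4* (0.27) and *Strbp* (0.44) over *Smc5* (0.56), *Rnpc3* (0.61) and *1700020I14Rik* (0.70) to *Tnrc6a* (0.78) and *Dzank1* (0.84), and 3 changed sign, *Tshz2* (-0.08), *Wasf1* (0.11) and *Zbtb20* (0.66). Mouse by mouse, the number of calls fell to 79 without placebo mouse 1 and to 40 without EPO mouse 4 and rose to 320 without placebo mouse 3, whose 3 cells with 2 or more of the genes limit how many genes can be tested. Without the barcodes shared by mice 1 and 4 it was 110.

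**Figure D4:**
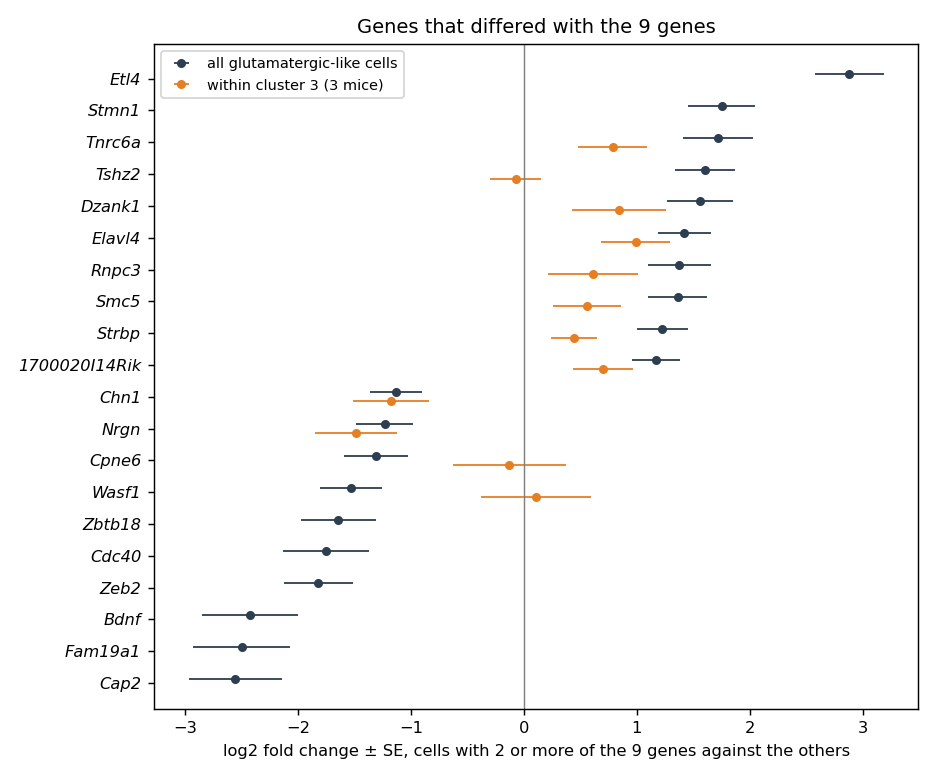
Log2 fold change ± SE between cells with 2 or more of the 9 genes and the other glutamatergic-like cells, for the genes named as higher or lower in every mouse. Values are shown over all cells and, where a gene could be tested there, inside cluster 3 alone. *Etl4* is farthest to the right over all cells, and *Tshz2* and *Wasf1* change sides inside cluster 3.

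Genes whose level followed the summed 9 genes cell by cell were sought among 9591 genes, by the mean over mice of Pearson's r in the 617 cells. The highest were *Gpr123* (0.327), *Fut9* (0.322), *Nrip3* (0.318), *Cbln2* (0.295), *Celf4* (0.286), *Grm8* (0.282), *Grik3* (0.276), *Pcp4* (0.273), *Hlf* (0.270) and *Lrrtm3* (0.270). *Cbln2* and *Pcp4* were seen in 5.83% and 7.94% of the cells, whereas *Celf4* was seen in 86.7%. The lowest were *Zbtb20* (-0.406), *Epha4* (-0.322), *Atp2b1* (-0.316), *Ppp3ca* (-0.314) and *Camk2b* (-0.313), each below 0 in 6 of 6 mice. *Zbtb20*, a zinc finger repressor that patterns CA1, thus lay farthest from the 9 genes. These are descriptions of weak correlations in sparse counts, in which cells share mouse, depth and cluster.

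None of the 9 genes passed the test of EPO against placebo. UMIs were summed per mouse over all retained cells and, separately, over glutamatergic-like cells, and EPO was compared with placebo by edgeR. Of 10043 genes in all cells, 0% passed an adjusted p of 0.05, and of 8499 genes in glutamatergic-like cells 0%, so that 0 of the 9 passed in either. At an unadjusted p under 0.05 edgeR marked 127 (1.26%) and 145 (1.71%) genes, none of them among the 9. limma called 0 in both and DESeq2 1 and 0.

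Together the 9 genes were at 347, 201 and 279 CPM in placebo mice 1, 3 and 5 and at 286, 349 and 424 CPM in EPO mice 2, 4 and 6, over all cells. These ranges overlap. *Tle4* was at 48.0, 53.8 and 36.3 CPM with placebo and 25.2, 53.9 and 65.6 CPM with EPO, with both the lowest and the highest value after EPO (log2 fold change 0.07, SE 0.34). *Hs3st4* was at 88.9, 24.5 and 81.9 CPM with placebo and 66.3, 68.8 and 93.0 with EPO (0.04, SE 0.34), where placebo mouse 3 alone lay below the EPO mice. Of the deep-layer factors, *Tbr1* was at 24.0, 4.89 and 10.0 CPM against 16.8, 24.6 and 14.4 (0.28, SE 0.49), and *Fezf2* at 44.4, 58.7 and 64.1 against 44.2, 60.6 and 88.0 (0.16, SE 0.28). Both pairs of ranges overlap, and placebo mouse 3 is again the lowest for *Tbr1*.

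*Sox5* was the one member without overlap. It was at 35.5, 9.78 and 31.7 CPM with placebo and at 44.2, 41.6 and 44.0 CPM with EPO, and in glutamatergic-like cells at 41.2, 10.7 and 33.7 against 46.6, 48.6 and 44.4. The lowest EPO value exceeded the highest placebo value in both sets of cells, as it did for 3.88% and 4.35% of all genes, while the reverse order was found for 1.97% and 1.96% of genes and none of the 9. The fold changes of 0.50 (SE 0.32, edgeR's adjusted p = 1.00) and 0.40 (SE 0.31, adjusted p = 1.00) were larger than their SE but did not pass. Over all cells, placebo mice averaged 25.7 ± 13.9 CPM and EPO mice 43.2 ± 1.45 CPM (SD, 3 mice in each group), a spread set on the placebo side by mouse 3.

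*Nxph3* had the highest fold change and the least even source. It was at 12.4, 0 and 3.86 CPM with placebo and at 5.26, 12.3 and 46.9 CPM with EPO, where the 0 of placebo mouse 3 allows up to 14.7 CPM. EPO mouse 6 alone gave 65 of the 113 UMIs, from 12 cells. The log2 fold change was 1.504 (SE 0.81, edgeR's adjusted p = 1.00) and fell to 0.42 without that mouse. *Garnl3* was at 39.1, 29.3 and 18.5 against 45.2, 43.6 and 29.6 CPM (0.41, SE 0.38), *Rmst* at 23.1, 9.78 and 8.4996 against 24.2, 19.0 and 10.1 (0.21, SE 0.53) and *Rprm* at 31.99, 9.78 and 24.0 against 14.7, 24.6 and 32.4 (-0.10, SE 0.37). In all 3 the groups overlap, and the fold changes of *Rmst* and *Rprm* are smaller than their SE.

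Counted by direction, 8 of the 9 genes lay above 0 over all cells, where 49.3% of all genes did, with a median of 0.21 against -0.0053, and 7 of 9 in glutamatergic-like cells (50.2% of all genes), with a median of 0.14 against 0.0011. The members come from the same mice and in part the same cells, so this is no count of independent results. The glutamatergic-like share was 37.2% in placebo mouse 3 (16 of 43 cells) and 55.2% to 73.9% in the other 5 mice, and its part in the values over all cells was not tested. Of 10 tested deep-layer genes other than the 9, 10 lay above 0 over all cells and 6 in glutamatergic-like cells, and 0 passed. All 5 tested near-projecting, 4 subiculum and 5 immature-marker genes lay above 0 in both sets of cells too, and 0 passed. The labels number the mice with D1 (placebo 1 and 3, EPO 2) or D2 (placebo 5, EPO 4 and 6), whose meaning is not stated. With D as a term *Tle4* (-0.04) and *Hs3st4* (-0.01) changed sign over all cells and 0 of the 9 passed.

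The share of cells with 2 or more of the 9 genes depended on the random draw that thinned the cells, and even its direction between the groups did. Averaged over 100 thinnings, the shares of glutamatergic-like cells were 10.7%, 9.88% and 7.16% in placebo mice 1, 3 and 5, with 12.2%, 15.1% and 9.65% in EPO mice 2, 4 and 6. EPO mice 2 and 4 lay above all placebo mice, and EPO mouse 6 lay below placebo mice 1 and 3. Placebo mice averaged 9.24% ± 1.84 and EPO mice 12.3% ± 2.70 (SD, 3 mice in each group), a difference of 3.07 percentage points, larger than either SD, between groups that overlap. In the single draw used for the other results, the shares were 10.0%, 18.8% and 7.35% with placebo and 11.8%, 12.7% and 7.41% with EPO, where the 18.8% of placebo mouse 3 rests on 3 of 16 cells. That draw gave 12.03% ± 5.96 and 10.6% ± 2.83, a difference of -1.40 points, smaller than the spread. It was 1.96 without placebo mouse 3, -2.61 within D1 and 2.71 within D2, and other single draws gave 2.41 and 1.29. No test was made of these shares, since they are a score over the members.

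**Figure D5:**
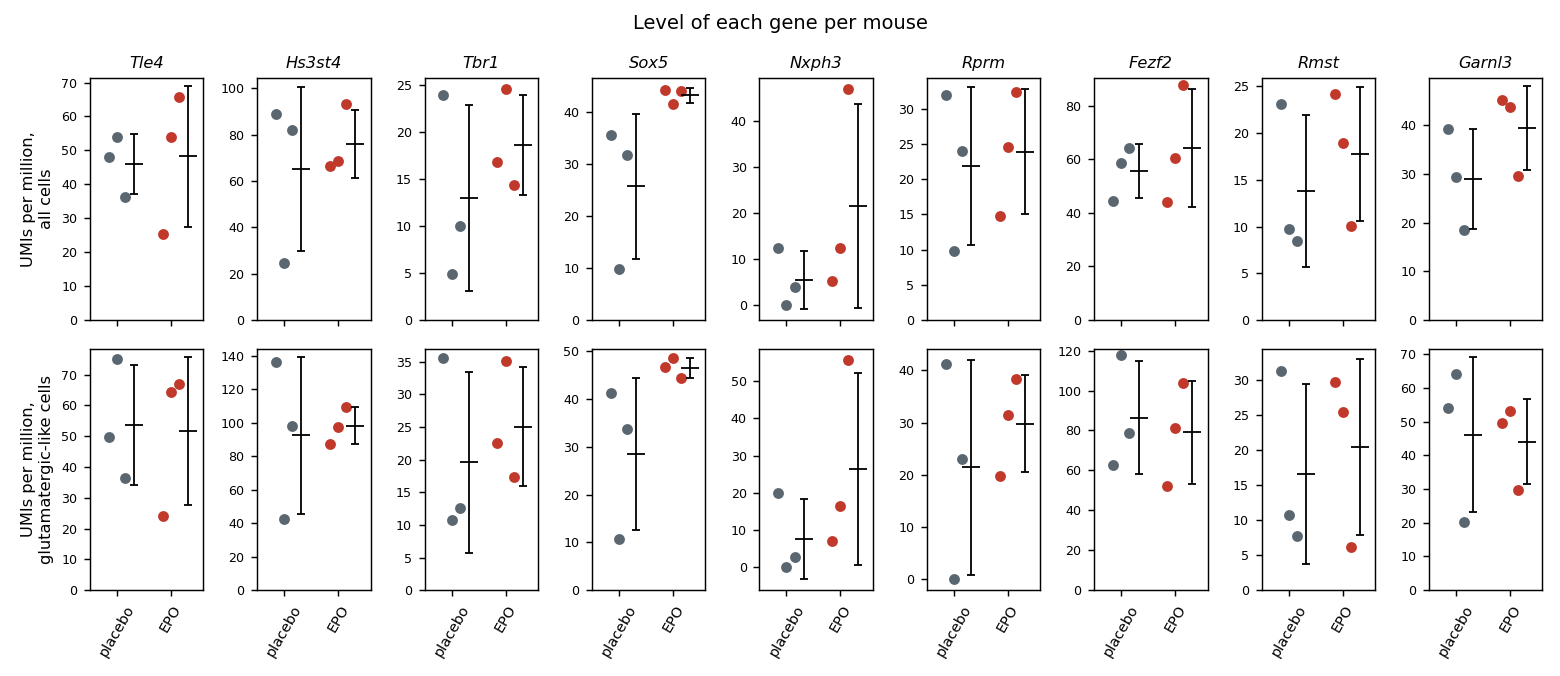
Level of each of the 9 genes in CPM for every mouse, over all retained cells (top) and glutamatergic-like cells (bottom), with the mean and SD of 3 placebo and 3 EPO mice beside the points. The groups overlap for every gene but *Sox5*, where placebo mouse 3 is lowest at 9.78 over all cells.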

How the data were processed

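The authors deposited UMI counts of genes by barcodes in 1 table, not normalized. bcl2fastq 2.15, STAR 2.4.0 and the build mm10 are named in the submitters' processing notes. The annotation, the counting of UMIs and how 1000 barcodes per mouse were picked are not given in the sources used here. Missing values (7771 genes in at least 1 mouse) were set to 0. Barcodes with more than 1000 and up to 8000 genes, and 40% or fewer of their UMIs in 27 mitochondrial genes, were retained. Totals per mouse and medians per cell are given with the results, and intervals and limits of a count of 0 (3 counts) cover counting error only. Mice were assigned from the barcode names and the labels.

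Cells were clustered in Seurat 5.3.0 (R 4.3.3) after log-normalization to 10000 per cell, with 1000 variable genes per treatment, the 9 members left out of them, canonical correlation anchors, 20 dimensions and resolution 1. A cluster was named after the type whose markers it carried most relative to the other clusters, with at least 3 markers in at least 10% of cells. This relative rule was chosen after the mean marker level had given cluster 3 an oligodendrocyte name. Doublets were called by Scrublet in scanpy 1.11.5 and kept, since 65.1% of the cells of placebo mouse 3 were marked, and at most 4.27% elsewhere.

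Co-detection and shares are expectations of drawing 1500 UMIs per cell without replacement. Cells with 2 or more members come from 1 such draw (seed 1). UMIs were summed per mouse and tested by edgeR 4.0.16 (quasi-likelihood, trimmed mean scaling, low counts filtered), with the mouse as a block where cells of the same mice were compared. This pairing is by animal. limma 3.58.1 (pseudocount of 2 UMIs) and DESeq2 1.42.0 were alternatives, with Benjamini-Hochberg adjustment at 5%. The procedure was tested on simulated counts. The study states that its biological replicates were processed separately. For EPO against placebo, p-values measure the spread between the 3 mice per group. Where cells of the same mice were compared, they measure the spread of the within-mouse difference over mice.

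Named genes are the 9 members, listed genes, the 10 genes most and 5 least correlated with the summed members, and, higher and lower, up to 10 genes that passed with the same direction in every mouse, by adjusted p. The members and lists were chosen with earlier results of these data known. Alternatives covered cell filters, thinning depth and seeds, naming without clusters, doublets, scaling, tools, the D number and each mouse left out. The 26 shared barcodes, cluster 3 alone, independence within clusters, the CA1 list without *Zbtb20* and the mean of 100 thinnings were added after seeing the data. Windows before gene starts come from RefSeq (GRCm38.p6).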

Additional observations from a re-analysis of the deposited data

Results flagged for a closer look

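In 38 sets of 6 mice, the mouse farthest from the others was compared with the range of the set, and 5 stood apart. Chance marks about 1 in 20 such sets. In placebo mouse 3, *Man1a*, a mannosidase of CA1 neurons, was higher by 19.9 CPM in cells with 2 or more of the 9 genes than in the other glutamatergic-like cells, while it was lower in the other 5 mice. In EPO mouse 6, *Stmn1* was higher by 637 CPM, more than in any other mouse, and *Zbtb18* differed by -109 CPM, less than in any other. The summed subiculum genes differed by 0.147 UMIs per 1000 in EPO mouse 6, the one mouse above 0. The summed Cajal-Retzius genes differed by -0.0148 in EPO mouse 2, on a list with 0 UMIs in the cells with 2 or more.

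The 9 genes also had UMIs in barcodes outside the comparisons. The 5027 barcodes that were not retained held 766 UMIs of them, or 279 CPM of 2748310 UMIs, against 338 CPM in the retained cells. *Rmst* had 103 UMIs there against 113 in the retained cells, and *Tbr1* 24 against 125.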

How the results depend on the processing

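No paired analysis was made for EPO against placebo because the labels state no pairing of placebo mice 1, 3 and 5 with EPO mice 2, 4 and 6. Without the replicate block, the comparison of cells with 2 or more of the 9 genes with the others gave 128 calls in place of 133. Its calls numbered 0 by limma, 227 by DESeq2, 402 without a filter on low counts, 61 for 1 or more of the genes, 80 with cells taken by marker UMIs, 50 at 3000 UMIs, 222 and 74 with seeds 2 and 3, 323 without cells called doublets, 36 inside cluster 3 and 40 to 320 with 1 mouse left out. Scaled to library totals it gave 26 higher and 97 lower calls, with the median of all genes at -0.26. Inside cluster 3, *Tshz2* (-0.075), *Wasf1* (0.11) and *Zbtb20* (0.66) changed sign. Of the other values of named genes in this comparison, 474 kept direction and call and 119 kept direction only.

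The mean CA1 difference stayed below 0. With 5 mice the test cannot go under 0.0625, and this was its p, with 5 of 5 mice below 0, without doublets (-1.22), with seeds 2 (-1.54) and 3 (-1.48), at 3000 UMIs (-1.005), and with 1 mouse left out (-1.26 to -0.952). It was below 0 in 4 of 5 mice at 20% mitochondrial UMIs (-1.43) and for 3 or more genes (-1.09), and in 5 of 6 with cells by marker UMIs (-0.920) and for 1 or more genes (-0.736). Inside cluster 3 it was -0.114, with 3 mice. The EPO difference in the share of cells with 2 or more was 5.39 points at 3000 UMIs, 3.07 over 100 thinnings and -3.74 to 1.96 with 1 mouse left out. The median excess of member shares in glutamatergic-like cells was 9.41 points without thinning. The co-detection median was 1.38 within clusters.

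EPO calls over all cells numbered 1 by DESeq2, 52 without a filter and 1 with D as a term. In glutamatergic-like cells they numbered 11 without a filter and 7 without mouse 5 (0 to 7 over the mice left out). Over all cells these log2 fold changes changed sign: *Rprm* 0.14 and *Tle4* -0.074 by limma, *Hs3st4* -0.0079 and *Tle4* -0.039 with D, *Rmst* -0.25 and *Tle4* -0.082 in all 6000 barcodes, *Rmst* -0.0066 at 20% mitochondrial UMIs, and *Rprm* 0.33 without shared barcodes. In glutamatergic-like cells they were *Garnl3* -0.012, *Hs3st4* 0.17 and *Tle4* -0.17 by limma, *Fezf2* 0.024 by library totals and 0.0073 without a filter, *Garnl3* -0.16, *Rmst* -0.14 and *Rprm* -0.043 at 20% mitochondrial UMIs, *Rmst* -0.26 with cells by marker UMIs, *Fezf2* 0.084 and *Hs3st4* 0.11 without shared barcodes, and *Fezf2* 0.10 and *Rprm* -0.0024 without doublets. With 1 mouse left out, the ranges that crossed 0 over all cells were *Fezf2* -0.037 to 0.33, *Hs3st4* -0.21 to 0.31, *Rmst* -0.25 to 1.02, *Rprm* -0.27 to 0.26, *Tbr1* -0.10 to 1.10 and *Tle4* -0.13 to 0.33, and in glutamatergic-like cells *Fezf2* -0.19 to 0.14, *Garnl3* -0.44 to 0.70, *Hs3st4* -0.29 to 0.23, *Rmst* -0.57 to 1.32, *Rprm* -0.25 to 0.61, *Tbr1* -0.38 to 1.06 and *Tle4* -0.17 to 0.39. *Sox5* and *Nxph3* kept their direction. The cause of these changes was not tested.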
